A study of Homo sapiens with 12 samples.

Results

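HuR, the protein encoded by ELAVL1, binds U-rich and AU-rich stretches in messenger RNA, mostly in introns and 3′ untranslated regions (3′ UTRs), and is known chiefly for stabilising its targets and changing their translation. Many of the mRNAs reported to bind it encode proteins that drive cell division or protect cells from death. The present account follows 34 mRNAs reported to bind HuR, listed by symbol from the literature, and not all of them have such roles. Genes placed in separate lists of immediate early genes and of G1 genes were left aside, and MYC and RHOB were kept here. Of these, 33 reached a mean of 0.5 CPM (counts scaled to the size of each library) over the 12 libraries and are called members here, out of 23615 genes in the deposited table. THBS1, at a mean of 0.729 CPM, lay just inside that limit, and SNAI1, at 0.402 CPM with 1 to 21 counts in a library, just outside it.

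The cells were HEK293T, a human embryonic kidney line. They carried a lentiviral short hairpin RNA against HuR (shHuR) or a control hairpin (shControl) and had been selected with puromycin, so each line was 1 hairpin's population. Cells of each line were left untreated, or were given an alkyne form of the lipid electrophile 4-hydroxynonenal (HNE, 25 µM) or the oxidant hydrogen peroxide (H2O2, 225 µM) in the medium for 18 h. There were 2 biological replicates in each of the 6 groups. The series asks what HuR does to the transcriptome under these stresses.

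Library totals were 24855946 to 29907256 counts. Intermediate filament genes reported in HEK293 cells were present, from VIM at 345 to 521 CPM down to NEFH at 0.288 to 0.882 CPM, and markers of leukocytes (PTPRC, CD3E), endothelium (PECAM1, CDH5) and liver (ALB) had 0 to 6 counts in any library. The fibroblast collagens COL1A1 and COL3A1 reached 2.17 to 6.47 CPM. Of the 7 filament genes 5 (71.4%) differed between the lines over all treatments, 2 higher (NEFM, INA) and 3 lower (NEFL, VIM, KRT8). Of all genes tested, 29.9% differed at the same threshold, an adjusted p under 0.05. The part of such line differences in the results below was not tested. Because the hairpin and the line coincide, an effect of HuR and any other difference between these populations cannot be told apart. The 6 shControl libraries gave a mean ELAVL1 level of 93.1 ± 4.91 CPM (SD, n = 6), and the 6 shHuR libraries gave 71.3 ± 2.01 CPM (SD, n = 6), so the mRNA was lowered and not removed.

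The sequences below show what the hairpin matches. They also show the most U-rich part of the 3′ UTR in some of the members whose level differed between the lines. The first line is the 21-base hairpin target, which matched ELAVL1 alone among the reference protein-coding transcripts, with the match to the seed of the guide strand (AGTTTGC) in capitals. Each other line is the 25-base window with the most T (U in the RNA) in the member's 3′ UTR. It was taken from GENCODE release 29 (GRCh38), with ATTTA and runs of 7 or more T in capitals. MYC, TGFB1, CASP2, CYCS and CCNB1 also differed between the lines and are not shown. The windows of CYCS and CCNB1 hold neither string, that of TGFB1 holds ATTTA alone and that of CASP2 is all T.
hairpin target: cccatcacagtgaAGTTTGCa
BCL2: aTTTTTTTctcctcttcTTTTTTTT
XIAP: tttattttATTTATTTAattttctt
WEE1: tcttatatttcTTTTTTTTTTaatt
DNMT3B: TTTTTTTTTTTcccttcctgggtct
IGF1R: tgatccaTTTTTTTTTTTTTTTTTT
STAT3: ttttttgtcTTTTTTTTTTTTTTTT
DEK: tatataaagTTTTTTTatttctttt
ACTB: ttttgttttggTTTTTTTTTTTTTT

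Counted on the sense strand, ATTTA occurred in the 3′ UTR of 28 of 33 members (84.8%), against 69.7% of 13536 tested genes with a reference 3′ UTR. The longer element TATTTAT, which contains ATTTA, occurred in 14 members (42.4%) against 32.8%. A run of 7 T occurred in 26 members (78.8%) against 47.4%. Members also had longer 3′ UTRs, with a median of 1660 bases against 1105, and a longer sequence holds more matches to any motif. A match is a string of letters and not a shown binding site.

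By the deposited FPKM (fragments scaled by transcript length and library size, a scale on which genes can be compared), the mean over the 12 libraries was 1300 for PTMA, prothymosin alpha, an acidic nuclear protein that restrains apoptosome formation. ACTB, cytoplasmic beta-actin, followed at 601 FPKM, and NCL, the nucleolar protein nucleolin, at 579 FPKM. At the other end stood PLAUR, the urokinase receptor, at 3.25 FPKM, TGFB1, the growth factor TGF-beta 1, at 1.74 FPKM, and THBS1, the matrix protein thrombospondin 1, at 0.128 FPKM. All 12 deposited counts of every member were whole numbers. PTMA, HMGB1, CYCS, ACTB and CALM2 have processed pseudogenes that can share reads with them, and NCL holds small nucleolar RNAs in its introns, so their levels are less certain.

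Over all treatments, 13 of the 33 members passed the test of shHuR against shControl, with 9 raised and 4 lowered in shHuR (edgeR quasi-likelihood test). A gene is said to be called when its p, adjusted over all genes tested, is under 0.05. The members lower in shHuR were MYC, BCL2, WEE1 and XIAP. Those higher were DNMT3B, TGFB1, IGF1R, STAT3, ACTB, DEK, CASP2, CYCS and CCNB1. Of all 16005 genes tested, 29.9% were called in this comparison, 14.1% higher and 15.9% lower. That balance turned over when libraries were scaled by their size alone, with 2604 genes higher and 2161 lower in place of 2249 and 2538, and with 11 members higher and 3 lower. Most members are abundant, and abundant genes are called more often: 11 of the 28 members with a mean of at least 20 CPM were called (39.3%), against 39.2% of all 8136 such genes. As a set the members were thus called at about the background rate. Their median log2 fold change was 0.05, against 0.00 for all genes, and 25 had an estimate above 0 and 8 below. In bulk RNA, fewer cells with a transcript and less transcript per cell cannot be told apart.

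In the level of 7 members, all 6 shHuR libraries lay on one side of all 6 shControl libraries: MYC, WEE1 and XIAP were lower, and DNMT3B, IGF1R, STAT3 and DEK higher. Among all genes tested 12.1% were separated in this way. All 7 are among the 28 members of at least 20 CPM, and of all 8136 such genes 1363 were separated. Of the 13 calls, 7 held under all 23 alternative analyses (MYC, WEE1, DNMT3B, IGF1R, STAT3, DEK and ACTB), and the other 6 were lost in at least 1. Without replicate 2 of the H2O2-treated shHuR group 8 members were called, and the share called among all genes was 25.2% in place of 29.9%.

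**Figure D1:**
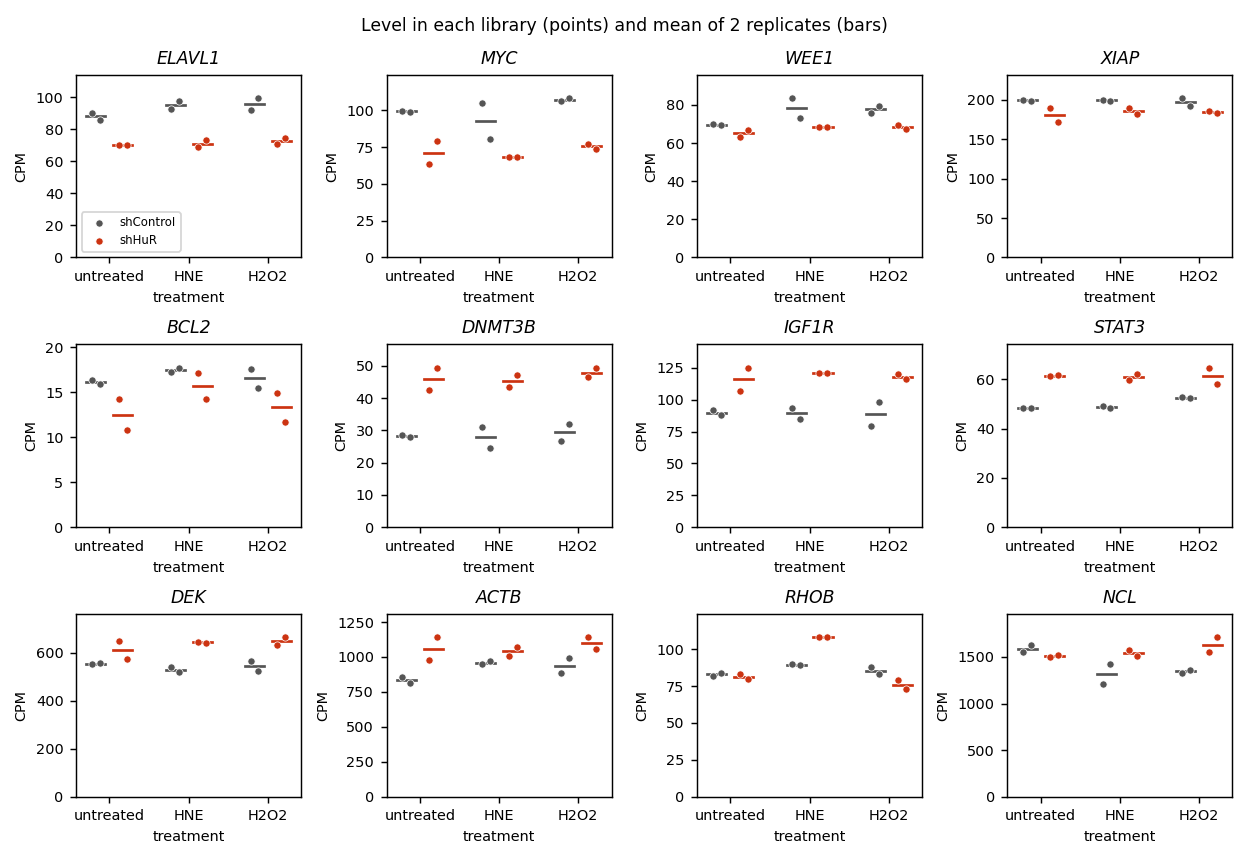
Level of ELAVL1 and 11 members in CPM (vertical axis, from 0) by treatment (horizontal axis); each point is a library, grey for shControl and red for shHuR, and each bar is the mean of 2 replicates. The shHuR points of MYC lie below the shControl points in each treatment, those of DNMT3B, IGF1R and STAT3 lie above, and RHOB separates upward with HNE at 108 CPM in both shHuR libraries.

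Within single treatments the comparisons rest on separate libraries of each line. In untreated cells 5 members were called (MYC lower; DNMT3B, IGF1R, STAT3 and ACTB higher), where 7.98% of all genes were (3.50% higher, 4.48% lower). With HNE 6 were called (MYC lower; DNMT3B, IGF1R, STAT3, DEK and RHOB higher), against 8.27% of all genes (3.24% higher, 5.04% lower). With H2O2 5 were called (MYC lower; DNMT3B, IGF1R, DEK and NCL higher), against 7.19% (2.52% higher, 4.67% lower). MYC, DNMT3B and IGF1R were called in each of the 3 treatments, 3 of 33 members (9.09%) against 2.95% of all genes. In all 3 treatments the estimate had the same sign for 17 members (51.5%, 13 higher and 4 lower), against 57.2% of all genes. The 13 with estimates above 0 in each treatment were MCL1, CYCS, CASP2, CCNB1, CTNNB1, STAT3, DNMT3B, DEK, IGF1R, TGFB1, NF1, ACTB and TRA2B, and the 4 below 0 were BCL2, XIAP, WEE1 and MYC. Of the other 16, estimates for CDK1, HMGB1, THBS1, MSI1, EIF4E and NCL were below 0 in untreated cells and above 0 with either agent. BIRC5, PTMA, CCNA2 and MTA1 were below 0 with HNE alone, CDC42 with H2O2 alone, and PARP1 and PLAUR with both agents. RHOB and CALM2 were above 0 with HNE alone, and SIRT1 with H2O2 alone. In any of the 3 treatments 8 members were called (24.2%), against 14.2% of all genes. All of these had a mean of at least 20 CPM, and the shares among genes of that abundance were higher. In untreated, HNE-treated and H2O2-treated cells 17.9%, 21.4% and 17.9% of the 28 such members were called, against 12.0%, 11.3% and 10.4% of such genes. In any treatment the shares were 28.6% and 19.6%, and in each of the 3 treatments 10.7% and 4.68%. The estimate had the same sign in all 3 treatments for 53.6% of such members and 64.4% of such genes. No test was made of the difference between these shares. These counts rest on 2 libraries a side. In every case that follows the share called among all genes fell as well, only slightly without H2O2-treated shControl replicate 2. The untreated count was 0 without shControl replicate 2 of that treatment, 1 without shControl replicate 1 and 1 without shHuR replicate 2. The HNE count was 1 without shHuR replicate 1 and 0 without shHuR replicate 2. The H2O2 count was 1 without shControl replicate 1 or either shHuR replicate, 2 without shControl replicate 2, and 3 when a library of HNE-treated shHuR or of untreated shControl was left out.

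**Figure D2:**
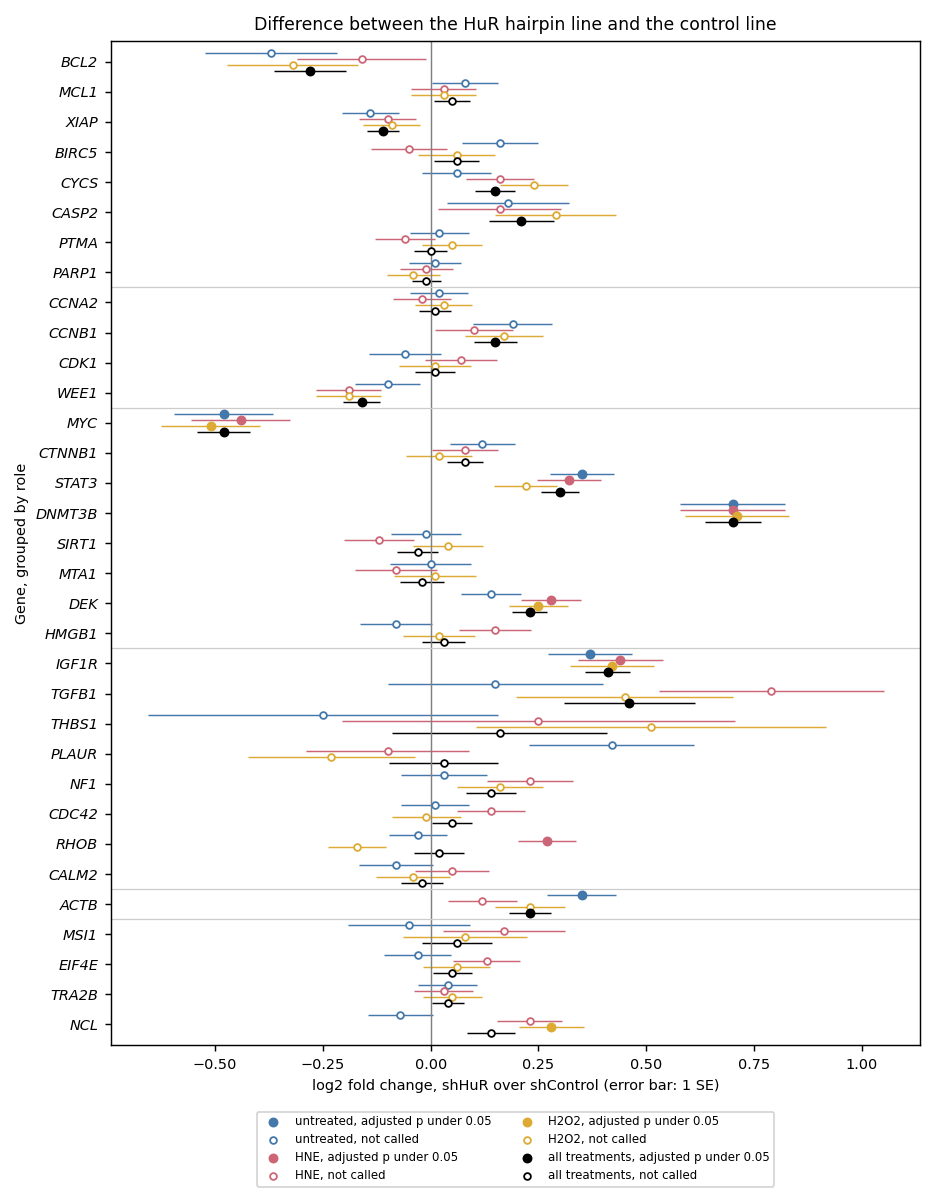
log2 fold change of shHuR over shControl (horizontal axis) for the 33 members, grouped by role, in untreated, HNE-treated and H2O2-treated cells and over all treatments; error bars are 1 SE and filled points have an adjusted p under 0.05. MYC stands at -0.44 to -0.51 and DNMT3B at 0.70 to 0.71 in the single treatments, while PTMA, PARP1, CCNA2 and CDK1 lie near 0 over all treatments.

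Among the 8 members of transcription and chromatin, MYC, the growth-promoting transcription factor, fell furthest. Its level in shControl was 99.6 and 98.8 CPM in untreated cells, 105 and 80.2 CPM under HNE, and 106 and 108 CPM under H2O2. In shHuR it was 63.3 and 79.2 CPM when untreated, 68.2 and 68.4 CPM under HNE, and 77.2 and 73.5 CPM under H2O2. The highest shHuR library, replicate 2 of the untreated group, thus lay just below the lowest shControl library, replicate 2 of the HNE group. The log2 fold change over all treatments was -0.48 (SE 0.0615, adjusted p = 2.15e-05). It was -0.48 in untreated cells (adjusted p = 0.0232), -0.44 with HNE (adjusted p = 0.0308) and -0.51 with H2O2 (adjusted p = 0.0159). These calls were lost in 7, 10 and 6 of 24 alternatives in turn, other scalings or limma fits among them. The untreated call was lost without shHuR replicate 1 (-0.32) or either shControl replicate. The HNE call was lost without shControl replicate 1 (-0.22), either shHuR replicate or either untreated shControl library, and the H2O2 call without any 1 of its 4 libraries.

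DNMT3B, a DNA methyltransferase that sets new methylation, had the largest rise of any member. Its shControl levels were 28.6 and 28.1 CPM when untreated, 31.2 and 24.4 CPM under HNE, and 26.8 and 31.9 CPM under H2O2. The shHuR levels were 42.5 and 49.4 CPM when untreated, 43.5 and 47.3 CPM under HNE, and 46.5 and 49.4 CPM under H2O2. The lowest shHuR library (42.5 CPM) lay above the highest shControl library (31.9 CPM). The estimate over all treatments was 0.70 on the log2 scale (SE 0.0649, adjusted p = 5.85e-07), with 0.70, 0.70 and 0.71 in untreated, HNE-treated and H2O2-treated cells. The untreated call was lost without replicate 2 of either untreated group (0.58 for shHuR, 0.68 for shControl), the HNE call without shHuR replicate 2 (0.64), and the H2O2 call in 0 of 24 alternatives.

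STAT3, a transcription factor downstream of cytokine and growth factor receptors, was higher in every shHuR library. It stood at 48.3 and 48.5 CPM in untreated shControl, 49.3 and 48.3 CPM under HNE, and 52.7 and 52.2 CPM under H2O2. In the shHuR line it stood at 61.2 and 61.8 CPM when untreated, 59.6 and 62.2 CPM under HNE, and 64.6 and 57.9 CPM under H2O2. The difference over all treatments was 0.30 on the log2 scale (SE 0.0433, adjusted p = 6.87e-05), and in H2O2-treated cells alone it was 0.22 and not called. The untreated call (0.35) was lost without shHuR replicate 2 or either shControl replicate, and the HNE call (0.32) without either shHuR replicate.

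DEK, a chromatin architectural protein, had 552 and 557 CPM in untreated shControl, 541 and 518 CPM under HNE, and 564 and 526 CPM under H2O2. In shHuR it had 651 and 574 CPM when untreated, 647 and 641 CPM under HNE, and 634 and 664 CPM under H2O2. The lines did not overlap, and the lowest shHuR library was replicate 2 of the untreated group. The difference over all treatments was 0.23 on the log2 scale (SE 0.0405, adjusted p = 0.000453). It was 0.28 with HNE (adjusted p = 0.0241) and 0.25 with H2O2 (adjusted p = 0.0429). The HNE call was lost in 7 of 24 alternatives, and the H2O2 call in 12 of 24. Of these, 8 left out 1 library, each of the 4 H2O2 libraries, the HNE-treated shHuR libraries and the untreated shControl libraries in turn. The HNE call was lost without either shHuR replicate or shControl replicate 2.

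The other 4 members of this group did not pass. CTNNB1, which encodes beta-catenin of cell junctions and Wnt signalling, had a log2 fold change of 0.08 over all treatments (95% interval -0.01 to 0.17). For HMGB1, an abundant DNA-bending protein, it was 0.03 (-0.07 to 0.14). For the deacetylase SIRT1 it was -0.03 (-0.13 to 0.07), and for MTA1, a subunit of a chromatin-remodelling complex, -0.02 (-0.13 to 0.09).

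Of the 8 survival and cell death members, 4 were called over all treatments and none in a single treatment. BCL2 and XIAP, which block the mitochondrial pathway and caspases respectively, were lower. BCL2 had 16.4 and 15.9 CPM in untreated shControl, 17.2 and 17.7 CPM under HNE, and 17.6 and 15.5 CPM under H2O2. The shHuR libraries had 14.2 and 10.8 CPM when untreated, 17.1 and 14.2 CPM under HNE, and 14.9 and 11.7 CPM under H2O2. The lines overlapped only through replicate 1 of the HNE-treated shHuR group. Its difference was -0.28 on the log2 scale (SE 0.0841, adjusted p = 0.0174), and the call was lost when shHuR replicate 2 of the untreated (-0.22) or of the H2O2 group (-0.24) was left out.

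XIAP had a small difference with little spread. In shControl it had 200 and 199 CPM when untreated, 200 and 199 CPM under HNE, and 202 and 192 CPM under H2O2. In shHuR it had 190 and 172 CPM when untreated, 190 and 182 CPM under HNE, and 186 and 183 CPM under H2O2, without overlap. Its difference was -0.11 on the log2 scale (SE 0.0370, adjusted p = 0.0303). It was -0.07 (adjusted p = 0.124) when each library was adjusted for transcript GC content, so the call ended there. It also ended in 11 other alternatives, among them leaving out 1 of 8 libraries (both H2O2 replicates and replicate 2 of HNE and untreated in shHuR, both untreated replicates and replicate 1 of HNE and H2O2 in shControl).

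CYCS, cytochrome c, which triggers caspase activation when released from mitochondria, had 422 and 448 CPM in untreated shControl, 394 and 442 CPM under HNE, and 426 and 390 CPM under H2O2. The shHuR libraries had 476 and 428 CPM when untreated, 479 and 457 CPM under HNE, and 465 and 496 CPM under H2O2. Only replicate 2 of untreated shHuR lay within the range of the shControl libraries. The estimate was 0.15 on the log2 scale (SE 0.0463, adjusted p = 0.0192), and the call was lost without H2O2 replicate 2 of either line. CASP2, an initiator-type caspase, had 65.7 and 62.0 CPM in untreated shControl, 65.6 and 52.7 CPM under HNE, and 59.7 and 71.9 CPM under H2O2. In shHuR it had 60.5 and 83.6 CPM when untreated, 65.1 and 67.4 CPM under HNE, and 86.1 and 74.5 CPM under H2O2, so the lines overlapped. The estimate was 0.21 on the log2 scale (SE 0.0757, adjusted p = 0.0456). With replicate 2 of the untreated shHuR group and replicate 2 of the HNE-treated shControl group both left out it was 0.11 (adjusted p = 0.254), and the GC adjustment gave 0.18 (adjusted p = 0.0567). The call was lost in 15 of 23 alternatives, 9 of which left out 1 library (5 of shHuR, all but replicate 1 of the untreated group, and 4 of shControl, all but HNE replicate 1 and H2O2 replicate 2).

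MCL1, another BCL2 relative, and BIRC5 (survivin), which serves mitosis and caspase control, did not pass over all treatments, at 0.05 and 0.06. PTMA stood at 0.00 (95% interval -0.08 to 0.08). PARP1, the DNA break sensor that caspases cleave, stood at -0.01 (-0.08 to 0.06).

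Other genes of mitochondrial cell death and caspase activation, listed without regard to reported HuR binding, gave a mixed picture as well. Of 22 tested, 5 were higher and 3 lower over all treatments, with a median log2 fold change of 0.03. The share called was 36.4%, against 29.9% of all genes. Called changes included APAF1, the apoptosome scaffold (0.34, adjusted p = 3.90e-05), and BAK1, a pore-forming BCL2 relative (0.32, adjusted p = 0.000413).

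Of the 4 cell division members, 2 were called over all treatments, in opposite directions. WEE1, the kinase that holds CDK1 inactive until mitosis, had 69.8 and 69.5 CPM in untreated shControl, 83.4 and 72.9 CPM under HNE, and 75.9 and 79.6 CPM under H2O2. In the shHuR line it had 63.3 and 66.9 CPM when untreated, 68.3 and 68.4 CPM under HNE, and 69.2 and 67.5 CPM under H2O2. Every shHuR library lay below every shControl library, with 69.2 against 69.5 CPM for the closest pair. Its difference was -0.16 on the log2 scale (SE 0.0432, adjusted p = 0.00973).

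CCNB1, cyclin B1, the mitotic partner of CDK1, had 234 and 255 CPM in untreated shControl, 269 and 306 CPM under HNE, and 274 and 238 CPM under H2O2. The shHuR libraries had 296 and 263 CPM when untreated, 313 and 304 CPM under HNE, and 273 and 302 CPM under H2O2, and the lines overlapped. The estimate was 0.15 on the log2 scale (SE 0.0495, adjusted p = 0.0261). The call was lost without untreated replicate 1 or H2O2 replicate 2 of either line. CCNA2, cyclin A2, and CDK1 each had 0.01, with 95% intervals of -0.07 to 0.09 and -0.09 to 0.11. Among 23 other genes of G2 and mitosis 4 were higher and 2 lower (median -0.03). The share called was 26.1%, against 29.9% of all genes. The largest called changes were in CDC20, CENPA and CDC25A. CDC20, an activator of the anaphase-promoting complex, had 0.35 (adjusted p = 0.000119). CENPA, the centromeric histone, had 0.27 (adjusted p = 0.00214). CDC25A, a phosphatase that activates cyclin-dependent kinases, had -0.24 (adjusted p = 4.23e-05).

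Among the 8 signalling and cell surface members, IGF1R and TGFB1 were called over all treatments, both higher. IGF1R, the receptor for insulin-like growth factors, had 91.9 and 87.8 CPM in untreated shControl, 93.3 and 85.1 CPM under HNE, and 79.1 and 97.9 CPM under H2O2. In shHuR its level was 107 and 125 CPM when untreated, 121 and 121 CPM under HNE, and 120 and 116 CPM under H2O2. The lines did not overlap. The estimate was 0.41 over all treatments (SE 0.0529, adjusted p = 2.19e-05) and 0.37, 0.44 and 0.42 in untreated, HNE-treated and H2O2-treated cells. The single-treatment calls were lost in 12, 5 and 4 of 24 alternatives in turn. The untreated call was lost without shHuR replicate 2 (0.25), either shControl replicate or any treated shHuR library. The HNE call was lost without either shHuR replicate or shControl replicate 2, and the H2O2 call without either shHuR replicate or shControl replicate 1 (0.28).

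TGFB1 was scarce and its lines overlapped, at 4.04 and 3.11 CPM in untreated shControl, 2.1 and 2.66 CPM under HNE, and 2.62 and 3.53 CPM under H2O2. In shHuR it had 3.38 and 4.55 CPM when untreated, 3.46 and 4.70 CPM under HNE, and 4.62 and 3.79 CPM under H2O2. Its log2 fold change of 0.46 (SE 0.152, adjusted p = 0.0308) was lost when 1 of 6 libraries was left out, lowest at 0.36 without replicate 2 of HNE-treated shHuR (the others being shHuR untreated 2 and H2O2 1, and shControl untreated 2, HNE 1 and H2O2 1). NF1, neurofibromin, a negative regulator of RAS, had 0.14 (adjusted p = 0.0667). The GTPase CDC42 had 0.05 and CALM2, 1 of the genes for calmodulin, -0.02. PLAUR (0.03, SE 0.126) and THBS1 (0.16, SE 0.249) were too scarce for a narrow estimate. RHOB, an endosomal small GTPase, had 0.02 over all treatments and is described with HNE below.

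ACTB rose in shHuR in untreated cells, from 856 and 811 CPM to 975 and 1140 CPM. With HNE its level was 950 and 969 CPM in shControl and 1010 and 1070 CPM in shHuR, and with H2O2 882 and 994 against 1140 and 1060 CPM. Within each treatment both shHuR libraries lay above both shControl libraries, and across treatments the lines overlapped. Its difference was 0.23 on the log2 scale over all treatments (SE 0.0488, adjusted p = 0.00176). It was 0.35 in untreated cells (adjusted p = 0.0200), 0.12 with HNE and 0.23 with H2O2, the last 2 not called. In 7 of 24 alternatives the untreated call was lost. The untreated call was lost without shHuR replicate 2 (0.23) or either shControl replicate (0.39 and 0.31) of that treatment.

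None of the 4 RNA binding and translation members passed over all treatments. The estimates were 0.14 for NCL (adjusted p = 0.0571), 0.06 for the neural progenitor RNA-binding protein MSI1, 0.05 for the cap-binding factor EIF4E and 0.04 for the splicing regulator TRA2B. The sign of the NCL estimate was not the same in every treatment. In untreated cells it had 1550 and 1630 CPM in shControl and 1500 and 1520 CPM in shHuR. With H2O2 it had 1330 and 1360 CPM in shControl and 1550 and 1710 CPM in shHuR, a log2 fold change of 0.28 (SE 0.0753, adjusted p = 0.0414) that was no longer called in 12 of 24 alternatives, 8 of which left out 1 library (the same 8 as for DEK). With HNE the levels were 1210 and 1420 against 1570 and 1510 CPM (0.23, not called). The order of the lines was thus opposite in untreated and treated cells, but the interaction of line and treatment did not pass for HNE (0.30, adjusted p = 0.712, unadjusted p = 0.0134) or H2O2 (0.35, adjusted p = 1.00, unadjusted p = 0.00542).

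Treatment brought 1 member past the threshold, in 1 line. With HNE in shHuR cells 1 of 33 members was called, RHOB, where 0.0750% of all genes were. RHOB had 83.1 and 79.8 CPM in untreated and 108 and 108 CPM in HNE-treated shHuR cells, a log2 fold change of 0.40 (SE 0.0673, adjusted p = 0.0475). In shControl it had 82.1 and 84.1 CPM untreated and 89.9 and 89.3 CPM with HNE, an estimate of 0.11 that did not pass. The treated libraries lay above the untreated ones in both lines. The difference between the lines in this response was 0.30 (SE 0.0951, unadjusted p = 0.00780, adjusted p = 0.712) and did not pass. The call in shHuR was close to the threshold: it was lost in 15 of 24 alternatives, with the estimate between 0.38 and 0.46 throughout. Leaving out any shHuR library, either untreated shControl library or replicate 2 of H2O2-treated shControl ended it. With both lines together RHOB had 0.26 (adjusted p = 0.139) in edgeR and was called by DESeq2. Between the lines RHOB was called under HNE alone (0.27, SE 0.0671, adjusted p = 0.0266), a call lost without either HNE-treated shHuR library. With H2O2 RHOB had 88.0 and 83.1 CPM in shControl and 78.8 and 72.8 CPM in shHuR.

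With HNE in shControl cells 0 members were called by edgeR, 0 by DESeq2, where edgeR called 0.0187% of all genes. An unadjusted p under 0.05 was reached by 8 members (24.2%), against 11.7% of all genes. Those 8 were BIRC5, CCNB1, WEE1, PLAUR and ACTB with estimates above 0 and TGFB1, THBS1 and NCL below 0. Of the 28 members of at least 20 CPM, 5 reached it (17.9%), against 13.5% of such genes. NCL had the lowest p, with a log2 fold change of -0.27 (adjusted p = 0.237). With both lines together 0 members were called by edgeR, against 0.247% of all genes, and 5 members (15.2%) had an unadjusted p under 0.05, against 12.3% of all genes. In shHuR alone 2 members (6.06%) had one, RHOB and BCL2, against 8.95%. At 20 CPM or more the shares were 10.7% of members and 14.4% of genes with both lines, and 3.57% and 11.9% in shHuR. MYC had -0.10 in shControl and -0.06 in shHuR, and BCL2 0.12 and 0.33, none of them called.

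With H2O2 0 members were called in either line or in both together, by edgeR or by DESeq2, where edgeR called 0% of all genes. An unadjusted p under 0.05 was reached by NCL in shControl (-0.24), by PLAUR in shHuR (-0.45), and by CCNA2 (0.10) and WEE1 (0.12) with both lines together. Of all genes, 4.34%, 3.37% and 5.45% reached it in these 3 comparisons. MYC had 0.11 in shControl and 0.08 in shHuR. In absolute value the members' median log2 fold change was 0.05 in each line with H2O2, against 0.09 for all genes, and with HNE 0.09 in shControl and 0.07 in shHuR, against 0.13 and 0.12. Among genes of at least 20 CPM it was 0.06 in each line with H2O2, and 0.09 in shControl and 0.08 in shHuR with HNE. The 28 members of that abundance had 0.04 in each line with H2O2, and 0.07 and 0.06 with HNE. Estimates above 0 numbered 14 of 33 with HNE in shControl, 20 with HNE in shHuR, 17 with H2O2 in shControl and 23 with H2O2 in shHuR. The HNE and H2O2 comparisons of a line share its untreated libraries, so their signs are not independent. BCL2, CCNA2, CCNB1 and WEE1 had estimates above 0 in all 4 comparisons, and MTA1 and TRA2B below 0. XIAP, CYCS, DEK, HMGB1, IGF1R, TGFB1, NF1, CALM2, EIF4E and NCL were below 0 with both agents in shControl and above 0 with both in shHuR.

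**Figure D3:**
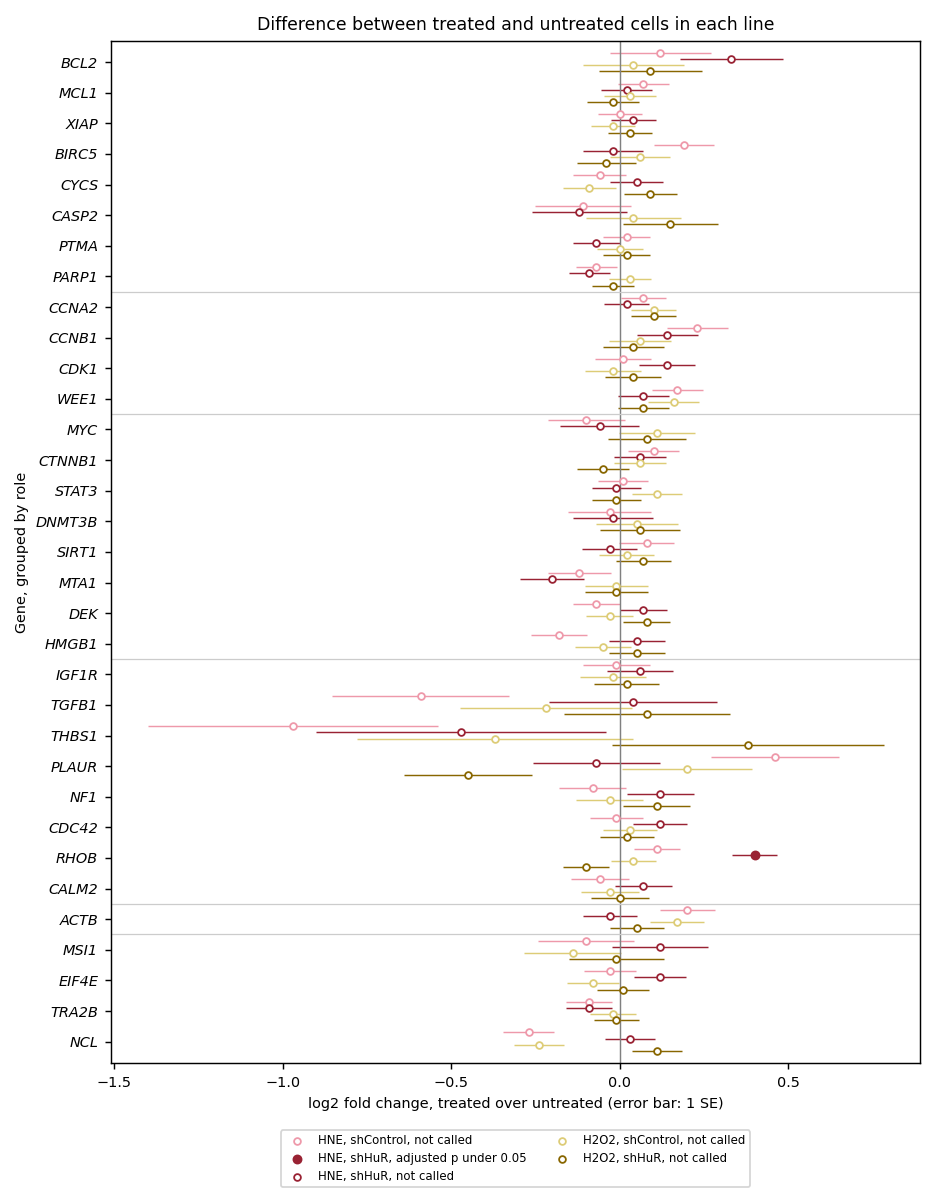
log2 fold change of treated over untreated cells (horizontal axis) for the 33 members, grouped by role, for HNE and H2O2 in each line; error bars are 1 SE and filled points have an adjusted p under 0.05. RHOB with HNE in shHuR, at 0.40, is the only filled point, and the scarce transcripts THBS1, TGFB1 and PLAUR have the widest bars.

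The interaction of line and treatment passed for 0 members with HNE and 0 with H2O2 in edgeR and in DESeq2, and 2 members had an unadjusted p under 0.05 in each, RHOB and NCL for HNE and PLAUR and NCL for H2O2. These 2 of 33 (6.06%) stand against 6.73% of all genes for HNE and 3.62% for H2O2 at the same threshold. edgeR called 0% of all genes in both. The interaction estimates for MYC were 0.03 (SE 0.162) for HNE and -0.03 (SE 0.162) for H2O2.

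The 3′ UTR strings were set beside the line difference over all treatments as a description. Members with a run of 7 T had a median log2 fold change of 0.05 and those without it 0.05. For ATTTA the medians were 0.05 with and 0.06 without, and for TATTTAT 0.05 and 0.05. Both directions occurred among members with T-runs: MYC has 7 such positions, BCL2 12 and XIAP 19, and all fell, whereas IGF1R has 22, STAT3 20 and ACTB 14, and all rose. The seed match of the hairpin's guide strand, AGTTTGC, was in the 3′ UTR of 5 members (15.2%), against 11.3% of genes. These were BCL2, XIAP, WEE1, DEK and EIF4E, so 3 of the 4 members that fell have it. BCL2 and XIAP have 1 site each and WEE1 has 2, while MYC has none. DEK, with 1 site, rose, and EIF4E, with 2, had an estimate of 0.05 and was not called. Members with the match had a median of -0.11 and those without it 0.05. Over all genes the medians were 0.00 and 0.00. Of the 1524 genes with the match 296 were called lower and 257 higher, and of the 12012 without it 1890 and 1812. The 3′ UTRs of BCL2 and XIAP are long, at 5279 and 6798 bases, and a longer sequence holds more matches to any motif. That of WEE1 has 605 bases. The part of the seed match in these differences was not tested.

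**Figure D4:**
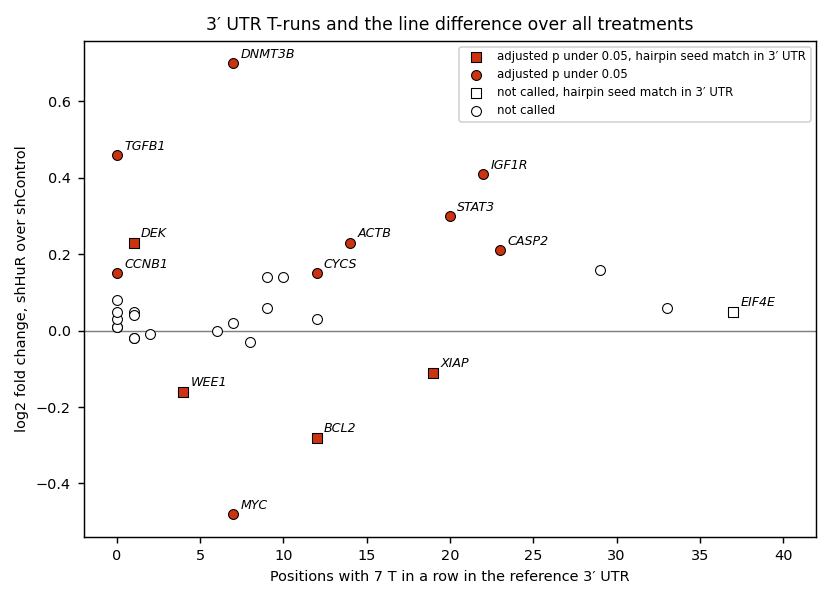
log2 fold change of shHuR over shControl over all treatments (vertical axis) against the number of positions with 7 T in a row in the reference 3′ UTR (horizontal axis) for the 33 members; red symbols have an adjusted p under 0.05 and squares have the hairpin seed match. Called members lie above and below 0 at low and high numbers of T-runs, and BCL2, XIAP and WEE1 are the squares below 0.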

How the data were processed

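Per the submitters' processing notes, the tools were cutadapt 1.8, Bowtie2 2.2, TopHat2 2.1, Cufflinks 2.2, Cuffnorm and Cuffdiff, with the build GRCh37 (hg19). Per the labels' protocols, ribosomal RNA was removed and strand-specific libraries were read as single-end sequences. The annotation and the use of strand in counting are not given in the sources used here, so reads of a gene and an antisense partner may not be told apart. One deposited table holds estimated counts with a gene symbol in each line, of which 2.06% were not whole (tolerance 1e-06), and another holds FPKM values, scaled by the authors per kilobase and per library. No coordinates were used, as the reference here (GENCODE 29) is on another build.

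Counts were rounded, filtered with filterByExpr (minimum count 10; 16005 genes kept), scaled with TMM and tested with edgeR 4.0.16 (R 4.3.3), quasi-likelihood, over all genes with Benjamini-Hochberg adjustment at 0.05. Single-treatment, single-line and interaction tests used 6 group means, the line difference used treatment as a covariate, and tests with both lines used 8 libraries with line as a covariate (15780 genes for HNE, 15801 for H2O2). The standard error is the fold change over the root of F, and 95% intervals use its t distribution. Alternatives were DESeq2 1.42.0, limma 3.58.1 on log2(FPKM + 1) and log2(FPKM + 0.1), other scalings and filters, a replicate block, fits of only the compared groups, and leaving out each library. An offset for transcript GC content (85.0% of genes had a value) and leaving out 2 libraries together were added after seeing the data. The tests were checked on simulated counts with planted changes larger than most member differences reported here. Recovery of smaller changes was not checked. Each library's value is given for members called in any comparison, and for MYC, BCL2 and ACTB. For 3′ UTRs, the principal transcript with a 3′ UTR was used. From each comparison list the 3 largest called changes were to be named, and 1 of these is not reported here. Members, lists and strings searched were chosen with earlier results of these data known. Reads carry no molecular identifiers as far as the labels say and do not stand for separate molecules, and p-values measure the spread between these libraries.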

Additional observations from a re-analysis of the deposited data

Results flagged for a closer look

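The 6 libraries of each line were searched for a library far from the other 5, by the gap to its nearest neighbour relative to the range. The 6 libraries include the 3 treatments. Of 66 member and line pairs 5 were marked, where chance marks about 1 in 20. In shControl, MYC was low in replicate 2 of the HNE group, at 80.2 CPM against 98.8 to 108 CPM in the others. XIAP was low in replicate 2 of the H2O2 group, at 192 against 199 to 202 CPM. MSI1 was high in replicate 1 of the untreated group, at 12.7 against 10.7 to 11.3 CPM. In shHuR, DEK was low in replicate 2 of the untreated group, at 574 against 634 to 664 CPM, and NCL was high in replicate 2 of the H2O2 group, at 1710 against 1500 to 1570 CPM.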

How the results depend on the processing

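No called member changed sign in any alternative, and of 30 calls of a member in a comparison 22 were lost at least once. The count of members called over all treatments was 13 and ranged from 9 to 15 across other settings and from 8 to 14 when 1 library was left out. In untreated cells the count of 5 became 3 with library size alone and 2 with each of the 3 limma fits on FPKM, and ranged from 0 to 5 when 1 library was left out. With HNE the count of 6 became 9 without a filter on low counts, 8 with replicate 2 of the untreated shHuR and HNE-treated shControl groups both left out, 3 with limma on log2(FPKM + 1) without a filter and 0 when the compared groups were fitted alone, and ranged from 0 to 6 when 1 library was left out. With H2O2 the count of 5 became 8 without a filter on low counts and 8 with the same 2 libraries left out. It became 2 and 3 with limma on log2(FPKM + 1) and log2(FPKM + 0.1), 1 with limma without a filter and 3 with the compared groups alone, and ranged from 1 to 7 when 1 library was left out. The single call for HNE in shHuR became 0 with library size alone, the 3 limma fits, the replicate block and those 2 libraries left out, and was 0 to 1 with 1 library left out. For HNE in shControl the count of 0 became 1 (NCL) without a filter, and 0 to 1 with 1 library left out (BIRC5 without shControl HNE replicate 1). For HNE in both lines it became 1 (RHOB) with DESeq2, without a filter and with those 2 libraries left out, and 0 to 1 with 1 library left out (RHOB without shControl HNE replicate 2). Other counts of 0, for H2O2 and both interactions, stayed 0. The share called among all genes differed by setting as well. Over all treatments other settings gave 19.5% to 34.6%. In untreated cells it was 7.98% in the main fit and 7.22% with library size alone. The 3 limma fits gave 8.14%, 8.23% and 3.47%. With HNE it was 8.27%, and 9.88% without a filter, 3.43% with limma without a filter and 1.33% with the compared groups alone. With H2O2 these were 7.19%, 8.64%, 3.23% and 5.31%, and 7.48% and 7.45% with the filtered limma fits. The cause of these changes was not tested. A group left with 1 library is assumed to vary like the others. The replicate numbers did not pair the samples (correlations of deviations from -0.11 to 0.13 over 15 pairs of groups), and apart from RHOB the replicate block ended only the CASP2 call, giving 12 members over all treatments. Precision is limited by 2 libraries a group and, for THBS1, TGFB1 and PLAUR, by low counts.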

Other observations

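Between the replicates of a group, except in HNE-treated shControl, the differences in member levels went along with transcript GC content, in either direction. Across the 33 members, Pearson's r between the log2 difference of replicate 2 over replicate 1 and GC content was 0.64 in untreated shHuR, -0.64 in untreated shControl, 0.58 in H2O2-treated shControl, -0.54 in H2O2-treated shHuR, 0.50 in HNE-treated shHuR and -0.13 in HNE-treated shControl. Across 13536 genes r ran from -0.11 to 0.24. The points of a group share their 2 libraries, and genes are not independent replicates. The line difference over all treatments had r = 0.21 with GC content across the members and 0.05 across all genes. With a GC offset 13 members were called over all treatments, 10 higher and 3 lower. Of all 13597 genes in that fit 34.3% were called, 2267 higher and 2396 lower.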
